A study of Gallus gallus with 24 samples.

Results

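The papilla ectoderm peak genes are the 66 genes, of 17108 in the count tables, whose counts were most concentrated in the papilla ectoderm of the chicken feather follicle. A gene was taken when its mean over the 4 papilla ectoderm libraries was at least 10 CPM (a gene's counts scaled to a common library total) and at least 2 times the mean of each of the other 5 tissues. Genes in which both birds of one sex exceeded both of the other in all 6 tissues were set aside first (247 genes, 0 of which met the other conditions). The rule allowed up to 100 genes, and all 66 that passed were kept. The same rule passed 140 genes in the lower follicle sheath, 153 in the upper follicle sheath, 157 in the dermal papilla, 439 in the pulp and 738 in the collar epithelium. The count for the papilla ectoderm depended on the scale: 112 genes passed with TMM factors (a scaling by ratios between libraries, with extreme ratios and levels trimmed). Over counts outside the run of neighbouring identifiers described below, 168 passed. All 66 were among the genes taken. The other tissues were not recounted on these scales.

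The libraries came from adult chickens, 2 males (birds 53 and 68, called male 1 and male 2) and 2 females (birds 52 and 120, called female 1 and female 2). Each bird gave polyadenylated RNA from 6 dissected parts of its sickle feather follicles (long tail feathers), 1 library each, which makes 24 libraries and 12 groups of sex and tissue. The labels name no treatment, breed or numerical age, and do not say whether several follicles of a bird were pooled. The design holds male against female within a tissue and tissue against tissue within a bird. The rule used the tissue means, so no test of the papilla ectoderm against another tissue was made for the members.

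The papilla ectoderm is the epithelium that lies against the dermal papilla at the base of the follicle, below the collar. In feather regeneration the dermal papilla signals to the epithelium around it, and this epithelium supplies the collar, where cells multiply and are patterned into the new feather. It thus sits between a mesenchymal signalling centre and the proliferating ring above it, and a dissected sample may carry cells of its neighbours.

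Gene names were not used here, because the count tables list Ensembl identifiers alone and 0 of them matched the reference table. Members are therefore described by identifier, with no role given, and the tissue could not be checked against known marker genes. The peak genes of the other tissues, taken by the same rule, were looked at in place of markers. The rule chose them for low levels outside their own tissue, the papilla ectoderm included, so the values do not measure neighbouring RNA. Of the passing genes the 100 with the largest ratio were kept, so the sets are not equally strict. In the lower sheath libraries, for comparison, the dermal papilla set stood at a median of 20.1% to 25.5% of its own level. The collar peak genes stood at a median of 0.12% to 2.08% of their collar level in the 4 papilla ectoderm libraries and the lower sheath peak genes at 0.15% to 1.01% of theirs. The dermal papilla peak genes stood at 2.93% in male 1, 17.97% in male 2, 23.1% in female 1 and 9.93% in female 2. For the pulp peak genes the medians were 1.35% in male 1 and 6.74% to 11.3% in the others, and for the upper sheath peak genes 3.44% to 7.54%. Male 1 was the lowest library for each of these 5 sets. Papilla ectoderm libraries held 12514383 (female 1) to 31404619 (male 2) counts, and 1 count was worth 0.0318 to 0.0799 CPM. In bulk tissue, more cells of a type and more RNA per cell cannot be told apart.

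The 66 members took a large part of the papilla ectoderm RNA. They held 44.1% of all counts in male 1, 45.3% in male 2, 30.2% in female 1 and 34.2% in female 2, a mean of 38.5% ± 7.42 (SD, n = 4). In the other tissues they held between 4.18% (upper sheath of male 2) and 12.3% (lower sheath of male 2). These values were used by the rule and are a description. The members were put into 4 groups, set after the values were seen. These were a run of 15 taken by their neighbouring identifiers with 2 companions, a block of 4 genes, a trio, and the 42 other members.

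**Figure D1:**
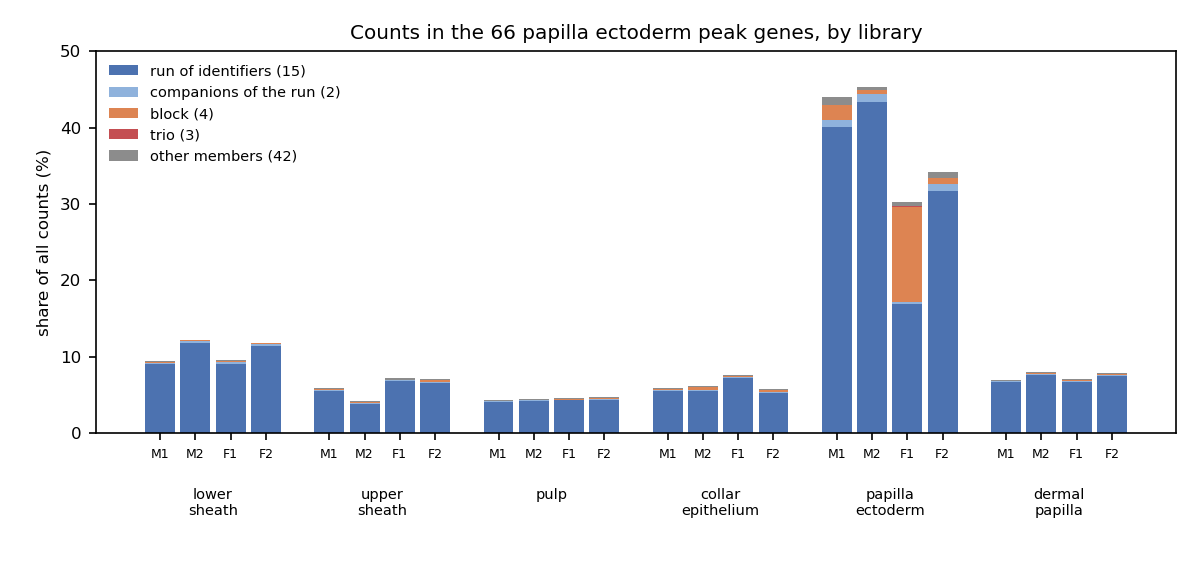
Share of all counts (percent, vertical axis) taken by the groups of members in each of the 24 libraries (M male, F female), stacked from 0. The 4 papilla ectoderm libraries stand at 30.2% to 45.3%, mostly through the run of identifiers, and in female 1 the block of 4 adds 12.3%.

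Members were also unequal in how far they stood above the other tissues. The papilla ectoderm mean was 2.04 to 24.5 times the next highest tissue, with a median of 3.06. The next highest tissue was the collar epithelium for 20 members, the lower sheath for 19, the pulp for 12, the upper sheath for 11 and the dermal papilla for 4. Every papilla ectoderm library lay above every library of the other 5 tissues in 38 of the 66 members. This held for 0.444% of all 17108 genes, and nothing is read from the comparison because the rule used it. The 3 members nearest the limit of fold stood at 2.04, 2.07 and 2.09 times the next tissue, and the 3 genes just outside at 1.97, 1.95 and 1.91 times. At the limit of level, the lowest 3 members stood at 10.2, 11.6 and 11.97 CPM, and the 3 genes just below it at 8.54, 7.19 and 7.04 CPM.

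**Figure D2:**
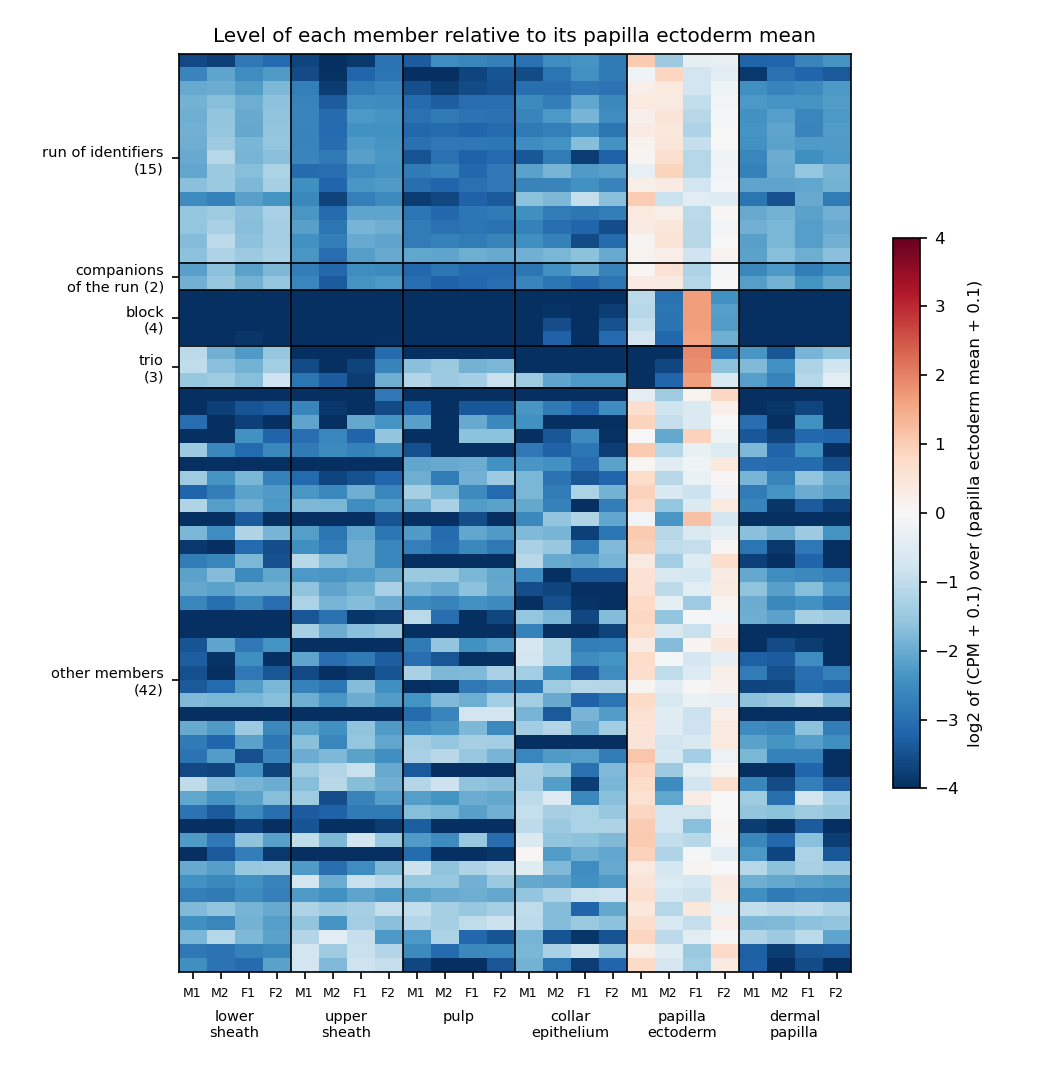
Level of each member (rows) in each library (columns, M male, F female), as log2 of its CPM over its papilla ectoderm mean, with 0.1 CPM added to both. Red lies above and blue below that mean. The block of 4 and the trio are red in the papilla ectoderm of female 1 alone, and most of the 42 other members are highest in male 1.

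Most of the counts came from members with neighbouring identifiers. The identifiers from ENSGALG00000018356.1 to ENSGALG00000018386.1 number 31 in the tables, without a gap, and 15 of them were members. The other 16 stayed below 10 CPM, at 4.23 CPM or less, and 14 of these 16 also had their highest mean in the papilla ectoderm. Of the 16, however, 11 had under 100 counts over all 24 libraries, and 1 had 0, so many of these means rest on few reads. The share over all genes is not given here, and nothing is read from the count. Together the 15 members held 40.03% of the counts of male 1, 43.3% of male 2, 16.9% of female 1 and 31.7% of female 2. The lower sheath came next, at 8.995% to 11.8%, then the dermal papilla at 6.65% to 7.60%. The collar had 5.26% to 7.17%, the upper sheath 3.88% to 6.78% and the pulp 4.07% to 4.36%. The lower sheath lay above the other 4 tissues, and from the dermal papilla down each tissue overlapped the next. What the identifiers encode is not given in the sources used here, so no programme of the tissue is read from their share. The part of RNA quality or cell state in this share, and in its differences between birds, was not tested.

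The 4 members with the highest level all belonged to this run. Levels are shares of counts, not corrected for gene length, so that this order is not one of transcript numbers. ENSGALG00000018373.1 stood at 108015 CPM in male 1, 133212 in male 2, 51489 in female 1 and 95618 in female 2, against 35135 CPM in the highest library of another tissue. ENSGALG00000018367.2 stood at 45164, 48604, 22834 and 37557 CPM in the same order. Female 1 was the lowest of the 4 libraries in both. ENSGALG00000018360.1 stood at 45579.9 CPM in male 1, 48308 in male 2, 15447 in female 1 and 35565 in female 2. ENSGALG00000018370.1 stood at 37581, 36975, 14528.5 and 26546 CPM. In each of the 4 genes both males lay above both females. This held in 3.74% of all genes tested, which is not a like background, as given below.

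The members of the run did not all share this order. Male 2 was the highest papilla ectoderm library in 11 of the 15 and female 1 the lowest in 13. ENSGALG00000018384.1, named after its values were seen as the member of the run that stood farthest above the other tissues (6.25 times the collar), had 17645.5 CPM in male 1, 3141 in male 2, 6453 in female 1 and 6857 in female 2. Male 2 was there the lowest library. ENSGALG00000018386.1 was likewise highest in male 1, with 10435 CPM, against 2834 to 3804 CPM in the other 3. These were the only 2 members of the run with the collar as next tissue, and the lower sheath was next for the other 13. Across the 24 libraries the pairwise Pearson correlations of log2 (CPM + 1) within the run had a median of 0.93 over 105 pairs. The rule chose every member for a high level in the papilla ectoderm libraries. A high median over the 24 libraries is thus built in, and nothing is read from it. Over the 20 libraries outside the papilla ectoderm the median within the run was 0.75, with a range of -0.43 to 0.98. Among the other members, outside the run, its companions, the block and the trio, the median was 0.64 over the 24 libraries. Over the 20 it was 0.085, with a range of -0.80 to 0.94. Members share libraries, and an abundant group moves the level of every other gene on a scale of CPM.

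Outside the run, 2 members followed it closely. ENSGALG00000021717.1 stood at 6068 CPM in male 1, 6240.01 in male 2, 2197 in female 1 and 4959 in female 2. ENSGALG00000021719.1 stood at 3516, 5093, 1405 and 3199.7 CPM. As in most of the run, male 2 was highest, female 1 lowest and the lower sheath the next tissue.

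The block of 4 held the members that stood out most from the other tissues. ENSGALG00000028371.1 ranked first of the 66, at 24.5 times the collar mean, with 3009 CPM in male 1, 802 in male 2, 20359.5 in female 1 and 1172 in female 2. ENSGALG00000025794.1 had the rank 3, with 3016, 876, 21036 and 1429 CPM. ENSGALG00000026592.1 had the rank 4, with 11689, 2983, 73277 and 4931 CPM, and was the most abundant gene of the female 1 library. In all 3 genes female 1 lay far above the others and male 2 was lowest, while even male 2 exceeded every library of the other tissues. ENSGALG00000029059.1, of rank 5 and named after its values were seen, stood at 1701, 330.1, 8822 and 750.5 CPM. Its lowest papilla ectoderm value lay below the highest collar value, 337 CPM.

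The proportions within the block differed between the papilla ectoderm and the other tissues for some of its genes. The level of ENSGALG00000025794.1 was 0.919 to 1.502 times that of ENSGALG00000028371.1 over the 24 libraries, and that of ENSGALG00000026592.1 was 3.599 to 6.57 times. The latter ratio was lower in the 4 papilla ectoderm libraries (3.599 to 4.21) than in the 20 others (5.03 to 6.57), with no overlap. For ENSGALG00000029059.1 the ratio was 0.412 to 0.640 in the papilla ectoderm and 0.745 to 1.04 elsewhere. The gene divided by, ENSGALG00000028371.1, ranked first by the rule, and the collar was the next tissue for all 4. On tissue means, a lower ratio in the papilla ectoderm than in the collar follows from that ranking, and nothing is read from it. The 4 genes were present in every library. Their summed level outside the papilla ectoderm was 1449 to 3241 CPM in the collar, 773 to 2041 in the lower sheath, 834 to 1678 in the upper sheath, 591 to 1449 in the pulp and 728 to 1144 in the dermal papilla. The libraries of the lower sheath, pulp and dermal papilla with the highest sum all came from female 1. Whether reads were shared between near-identical copies is not given in the sources used here, so the split of counts among the 4 is uncertain.

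**Figure D3:**
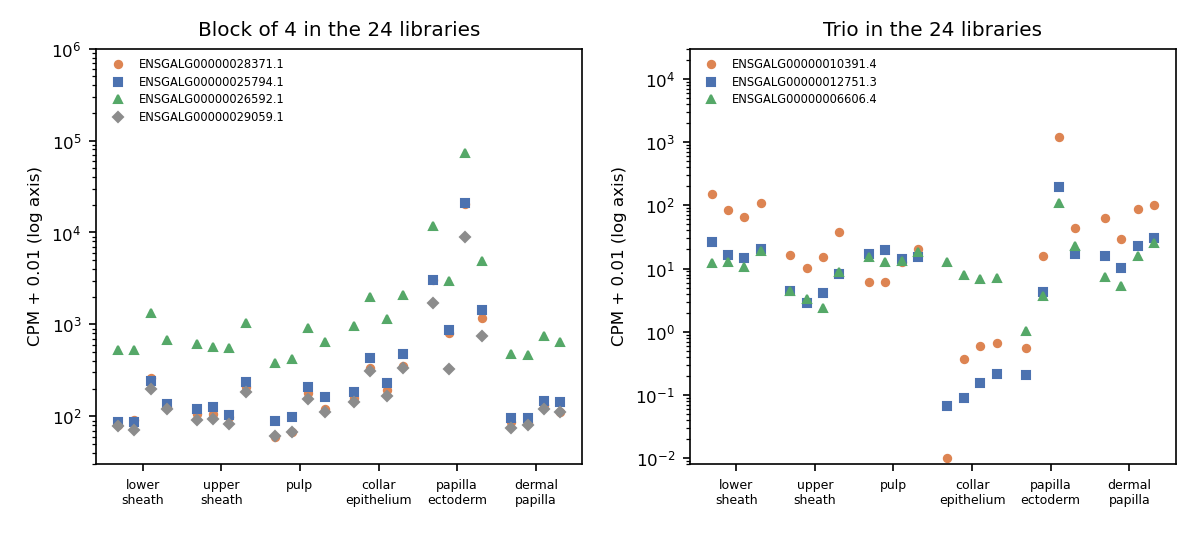
Level (CPM + 0.01, log axis) of the 4 genes of the block and the 3 of the trio in the 24 libraries, with the libraries of a tissue ordered male 1, male 2, female 1, female 2. The block peaks at 8822 to 73277 CPM in the papilla ectoderm of female 1, and the trio is at 0.54 CPM or less in male 1 for 2 of its genes.

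The trio met the rule through a single library. ENSGALG00000010391.4 stood at 0.541 CPM in male 1 (11 counts), 15.8 in male 2, 1198 in female 1 and 44.02 in female 2. ENSGALG00000012751.3 stood at 0.197 CPM in male 1 (4 counts), 4.17, 193 and 17.02. ENSGALG00000006606.4 stood at 1.03, 3.69, 110 and 22.6 CPM. In each of these genes female 1 lay above and both males lay below the level of the lower sheath, where the means were 101 ± 35.8, 19.4 ± 5.14 and 13.6 ± 3.85 CPM (SD, n = 4). The collar held 0.402, 0.123 and 8.62 CPM on average. Without female 1 in the papilla ectoderm, 0 of the 3 remained members. The dermal papilla and pulp peak genes were also lowest in male 1, and the dermal papilla peak genes were highest in female 1, at the values given above. Their part in the trio was not tested.

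The 42 other members were less abundant, with papilla ectoderm means of 10.2 to 1054 CPM and a median of 71.7. They stood at 2.04 to 21.8 times the next tissue, and 23 of them at less than 3 times. Next came the collar for 14 of them, the upper sheath for 11, the pulp for 11 and the lower sheath and the dermal papilla for 3 each. Their highest and lowest papilla ectoderm libraries differed by 1.52 to 11.5 times, with a median of 3.72.

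The 42 included profiles of different kinds. ENSGALG00000026297.1, second of the 66 by its ratio, stood at 62.9 CPM in male 1, 31.01 in male 2, 91.4 in female 1 and 147 in female 2. Outside the papilla ectoderm it reached 11.4 CPM in a single upper sheath library and 2.15 CPM or less in the other 19. All 4 papilla ectoderm libraries lay above all others. ENSGALG00000001197.4, the most abundant of the 42 and named after its values were seen, stood at 1751, 700.1, 569 and 1196 CPM. Its next tissue was the upper sheath, at 345 ± 62.5 CPM (SD, n = 4), followed by the collar at 91.5 ± 48.6, and the lower sheath, dermal papilla and pulp had 32.8 ± 11.01, 25.4 ± 6.34 and 12.6 ± 10.3 CPM. The upper sheath lay above the collar without overlap and the collar above the other 3, of which the dermal papilla overlapped both the lower sheath and the pulp.

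Among the 42, male 1 was the highest papilla ectoderm library in 34 and male 2 the lowest in 27. Over all 14077 genes tested, male 1 was highest in 19.3% and male 2 lowest in 34.2%. With TMM factors male 1 was highest in 38 of the 42, against 34.7% of all genes, and the lowest library was female 1 in 22 (24.6% of all genes) and male 2 in 20 (21.8%). The order among the 4 libraries was not used by the rule as such, but a high value in any library raises the mean on which it acts. Some of the 42 were members only with male 1 included, as given below. The shares of all genes are thus not a like background, and nothing is read from the comparison. The summed level of the 100 upper sheath peak genes, unlike their median given above, was highest in male 1, at 7363 CPM, followed by 5292 in female 2, 2708 in male 2 and 2647 in female 1. Its part in the levels of the 42 was not tested.

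**Figure D4:**
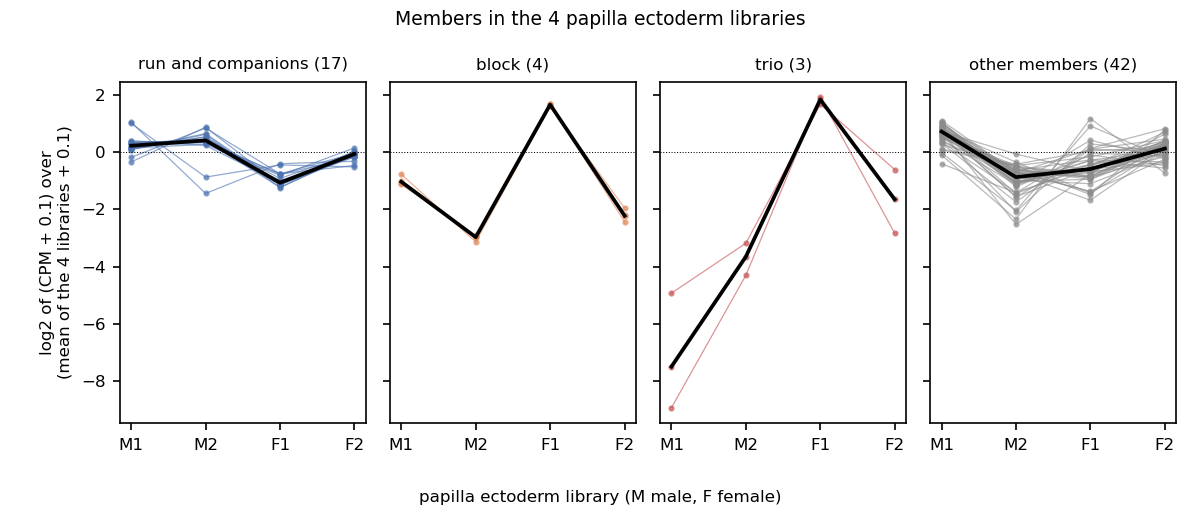
Level of each member in the 4 papilla ectoderm libraries, as log2 of (CPM + 0.1) over (its mean of the 4 + 0.1), by group; thin lines are members and the thick line the median. The run is lowest in female 1, the block and the trio are highest there, and the other members are mostly highest in male 1.

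The birds differed enough in the papilla ectoderm to move the list itself. Of the 66 members, 47 were chosen again without the papilla ectoderm of male 1, 65 without male 2, 60 without female 1 and 61 without female 2. The loss without male 1 fell mostly on the 42 other members, of which 24 remained, whereas all 4 genes of the block and 16 of the 17 of the run and its companions remained. With the median of the 4 libraries in place of the mean, 52 members remained and 0 of the trio. When the rule was applied to the 2 males alone, 65 genes passed, 56 of them members, and 55 of the 65 had their highest level of 6 tissues in the papilla ectoderm in both females, which were not used for the choice. In both females this held for 3.5% of the 14077 genes tested. When it was applied to the females alone, 69 genes passed, 54 of them members, and 46 of the 69 were highest in the papilla ectoderm of both males, against 1.89% of all genes. These shares of all genes are not matched for level, and the run moves the level of every other gene on a scale of CPM. The genes of the run also move together and are not separate observations. The counts are thus a description, and nothing is read from the comparison.

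Male and female papilla ectoderm were compared with edgeR's quasi-likelihood test on the counts of the 24 libraries, with Benjamini-Hochberg adjustment over all 14077 genes tested and a threshold of 0.05. All 66 members passed the filter on low counts. The members were chosen by means over both sexes, so this contrast is not the one of the rule, but a gene that is very high in 1 library can enter through it. Of the 66 members, 0 were called higher in males (background 0.796% of all genes) and 3 higher in females (background 1.24%). At an unadjusted p under 0.05 the male-higher members numbered 23, against 7.84% of all genes, and 16 of them belonged to the run and its companions. DESeq2 called 14, all of the run and its companions, among 330 male-higher genes in all. The genes of the run move together and are not separate observations. The 3 female-higher members were the trio. Since these met the rule through female 1, their direction was fixed by the choice of members, and nothing is read from the count or its p-values.

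As a description, ENSGALG00000006606.4 had 66.4 ± 62.0 CPM in females and 2.36 ± 1.88 in males (SD, n = 2 each), a fitted log2 difference, male minus female, of -4.33 ± 0.76 (SE). ENSGALG00000012751.3 had 105 ± 124 CPM in females and 2.18 ± 2.81 in males, with -5.08 ± 1.03. ENSGALG00000010391.4, named because it completes the 3, had 621 ± 816 CPM in females and 8.18 ± 10.8 in males, with -5.77 ± 1.37. Both females lay above both males in each gene, as in 39.1% of all genes tested. Without female 1 the 3 differences shrank to -2.85, -2.56 and -2.05, and without male 1 they stood at -3.73, -4.21 and -4.85. In each of these fits 0 of the 3 passed the threshold.

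The 17 genes of the run and its companions all had higher fitted levels in males, with log2 differences of 0.88 to 1.44, and 0 passed the threshold (adjusted p 0.063 to 0.35, edgeR), while 16 had an unadjusted p under 0.05. In 13 of the 17 both males lay above both females in CPM, a pattern seen in 3.74% of all genes tested. Both females lay above both males in 39.1%. An abundant group moves the level of every other gene on this scale, and the 17 genes move together. The 3.74% is thus not a like background, and nothing is read from the comparison. Fold changes depended on the scale, and TMM factors were 0.716 and 0.748 in the males and 1.03 and 0.962 in the females. With file totals alone the median of all genes moved from 0.05 to -0.37 on the log2 scale, and the 17 genes stood at 0.47 to 1.03. DESeq2 called 14 of the 17, among 330 male-higher genes in all. By edgeR, 12 of the 17 were called without female 2 (117 male-higher genes in all), 7 without male 2 (884), 2 without male 1 (156) and 0 without female 1 (16), when 4 had an unadjusted p under 0.05.

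The block of 4 had log2 differences of -2.005 to -1.71, and 0 of the 4 passed the threshold by edgeR (adjusted p 0.25 to 0.31, 3 with an unadjusted p under 0.05) or by DESeq2. The sign turned without female 1, when the 4 genes stood at 0.86 to 1.12. Without female 2, 3 of the 4 were called higher in females (adjusted p 0.030 to 0.065 over the 4), among 298 female-higher genes in all. Of the 42 other members 37 had a fitted difference above 0, against 53.6% of all genes. Of these 42, 0 were called by edgeR or DESeq2, with 7 at an unadjusted p under 0.05 (all genes 7.84% male-higher and 8.94% female-higher). Male 1 was the highest library in 34 of the 42, and some were members only with male 1 included. The sign thus depends in part on the choice of members, and nothing is read from the count. Without male 1, 8 of the 42 lay above 0, and their median was -0.26, against -0.02 over all genes. Without male 2, 9 of the 42 were called by edgeR, in a fit that called 884 male-higher and 1919 female-higher genes.

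**Figure D5:**
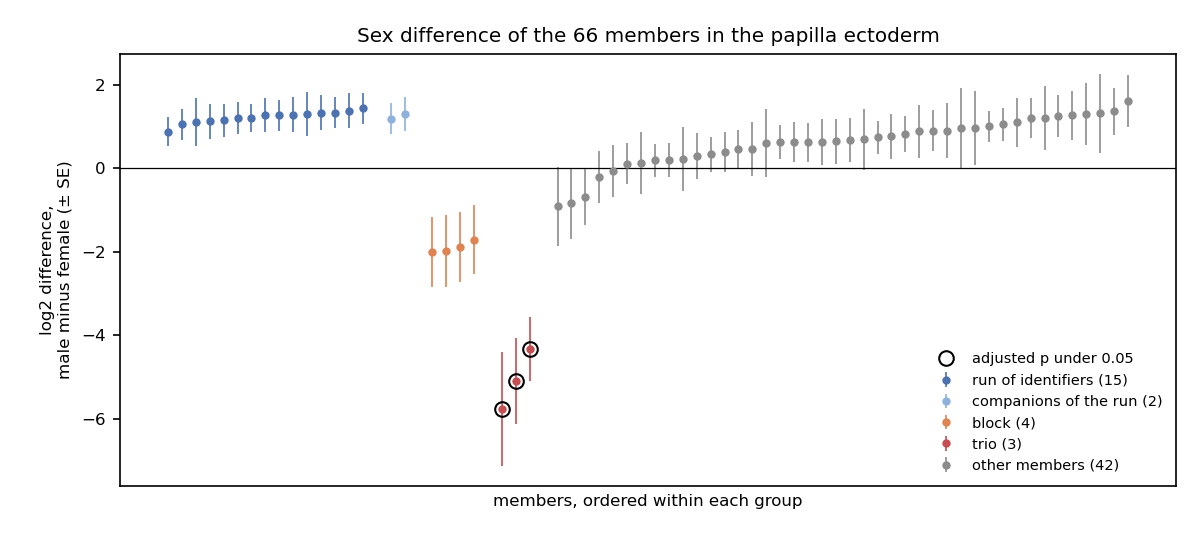
Log2 difference between male and female papilla ectoderm for the 66 members (vertical axis, male minus female), ordered within each group. Bars are SE, computed from the edgeR log2 difference and F statistic, and circles mark adjusted p under 0.05. The trio lies at -4.33 to -5.77, the block at -1.71 to -2.005 and the run at 0.88 to 1.44.

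Whether the sex difference of a member in the papilla ectoderm differed from its mean in the other 5 tissues was tested in the same fit. That fit treats the libraries as independent, although each bird gave all tissues, so its p-values here ignore the pairing. The result with the bird as a block is given in the last section. Of the 66 members 0 passed by edgeR (background 0.0426% of all genes, 0.0355% male-higher and 0.0071% female-higher). At an unadjusted p under 0.05 there were 22 male-higher members (7.30% of all genes). The run and its companions made up 17 of them, and these genes move together. The 3 female-higher members (5.48% of all genes) were the trio. Since the trio met the rule through female 1, its direction was fixed by the choice of members, and nothing is read from it. DESeq2 called 5 male-higher and 3 female-higher members, among 63 and 112 genes in all. All 17 genes of the run and its companions had an unadjusted p under 0.05, with values of 1.04 to 1.83 and adjusted p of 0.17 to 0.34.

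In the other tissues edgeR called a single member between the sexes, and DESeq2 called 3, all in the pulp (1 male-higher and 2 female-higher, among 218 and 170 genes). ENSGALG00000001197.4 was higher in the male pulp, at 21.9 and 20.9 CPM against 3.29 and 4.05 in females (log2 difference 2.52 ± 0.52 SE, edgeR adjusted p = 0.033). The pulp of all 4 birds held little of this gene beside the papilla ectoderm. Of all genes, 0.952% were called in the pulp, 0.483% male-higher and 0.469% female-higher. Without any 1 of the 4 birds the call was lost (adjusted p 0.092 to 0.505), while the log2 difference stayed at 2.37 to 2.68. By edgeR 0 of the 66 members were called in the lower sheath, upper sheath, collar or dermal papilla. The background was 0.483% in the lower sheath (0.185% male-higher, 0.298% female-higher) and 0.59% in the upper sheath (0.298% and 0.291%). It was 0.931% in the collar (0.17% and 0.76%) and 0.398% in the dermal papilla (0.135% and 0.263%). An unadjusted p under 0.05 was reached in the lower sheath by 0 male-higher and 2 female-higher members (3.99% and 4.80% of all genes) and in the upper sheath by 0 and 1 (4.54% and 2.95%). In the collar it was reached by 5 and 2 (6.86% and 13.1%), and in the dermal papilla by 0 and 1 (2.88% and 2.91%). DESeq2 called 0 members in these 4 tissues.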

How the data were processed

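RNA was extracted with TRIzol, and libraries of polyadenylated RNA were made with the Illumina TruSeq kit, version 2, per the labels' protocols. The authors deposited raw whole-number counts per gene, 1 file for each of 24 libraries, and the values were used as deposited. The submitters' processing notes name STAR 2.4.1d, HTSeq 0.6.0, edgeR and the build galGal4. The sources used here do not give the strand setting, annotation release or filters, so counts of overlapping or near-identical genes are uncertain. The reference table (25635 rows) matched 0 identifiers, so 18 gene lists by symbol were not used, nor were sequences.

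CPM was computed over file totals. The members, their groups, the lists and the tests were chosen with earlier results of these data known. Sex differences were tested in R 4.3.3 with edgeR 4.0.16 (TMM, filterByExpr with minimum count 10, 12 group means, 12 residual degrees of freedom) and DESeq2 1.42.0 as an alternative. The filter kept 14077 genes. The SE of a log2 difference is its absolute value over the square root of edgeR's F statistic, as the test itself gives no SE. The fits were also run on simulated counts, drawn as independent libraries with the spread that the fit had estimated. Such a run checks the code alone. It leaves out the sharing of birds between tissues and any spread beyond the estimate. Named members are the first 4 by ratio, the first 4 by level and at most 2 called per direction. All others were named after their values were seen, whether or not marked so at their mention. Each bird gave all tissues, and the labels thus pair tissues by bird. Deviations of the birds correlated between tissues with a median r of 0.26 in males and 0.14 in females. The sexes are different birds, so no pairing joins them within a tissue. Replicate libraries differed by more than sampling noise (median chi-square per gene 5.02 to 42.15). The highest value was that of the male papilla ectoderm, with 20.9 next in the female collar and 10.2 in the female papilla ectoderm. With 2 birds per sex, p-values measure the spread between these samples. The fit shares that spread over the 12 groups, so they do not measure the spread of the papilla ectoderm libraries alone.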

Additional observations from a re-analysis of the deposited data

Results flagged for a closer look

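In the 6 members listed here 1 of the 4 papilla ectoderm libraries lay far from the rest, in each case female 1 on the high side. The gap to the next library, as a share of the whole range, was 0.887 for ENSGALG00000028371.1, 0.894 for ENSGALG00000025794.1, 0.876 for ENSGALG00000026592.1 and 0.839 for ENSGALG00000029059.1, the block of 4. It was 0.964 for ENSGALG00000010391.4 and 0.913 for ENSGALG00000012751.3, of the trio. Each lies past Dixon's 95% critical value for 4 samples, which chance passes in about 1 in 20 groups that were not selected. That rate does not apply to members, because 1 high library raises the mean on which the rule acts. Of all 66 members 8 passed it. They included ENSGALG00000018386.1 (0.872, with male 1 on the high side) and ENSGALG00000018357.1 (0.835, with female 1 on the low side). The share over all genes is not given here, and nothing is read from the count. The 4 libraries span both sexes. Female 1 was also the shallowest papilla ectoderm library, with 12514383 counts, and its part in these gaps was not tested.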

How the results depend on the processing

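The list kept 47 to 66 of its 66 members under every alternative rule tried, and TMM scaling let 112 genes pass, of which the first 100 held all 66. Over counts outside the run, a scale chosen after seeing the data, 168 genes passed. The median ratio to the next tissue, 3.06, was within 1.5 times under both alternatives. In the papilla ectoderm, male-higher and female-higher members numbered 0 and 3. DESeq2 gave 14 and 3, a fit of these 4 libraries alone 0 and 0 (with 0 genes called in all), and a fit leaving out 3 libraries that stand apart (papilla ectoderm of male 1, lower sheath and dermal papilla of female 1) 1 and 0. Leaving out each papilla ectoderm library gave 0 to 16 and 0 to 6; the lone library is then assumed to vary like the other groups. For the difference from the other tissues, 0 and 0 members passed, as with the bird as a replicate block (0 and 0). DESeq2 gave 5 and 3, file totals 0 and 1, and leaving out a bird 0 to 7 and 0 to 1. In the pulp 1 male-higher member became 0 without any bird, and DESeq2 called 2 female-higher members. In the collar, male-higher members numbered 1 without the 3 libraries, and leaving out a bird gave 0 to 3 male-higher and 0 to 1 female-higher. Log2 sex differences turned sign in the ranges over libraries left out: -3.31 to 1.12 (ENSGALG00000028371.1), -3.24 to 0.86 (ENSGALG00000025794.1), -3.27 to 0.99 (ENSGALG00000026592.1), -3.42 to 0.86 (ENSGALG00000029059.1) and -0.68 to 1.88 (ENSGALG00000018384.1, also -0.68 without the 3 libraries). The cause was not tested. With 2 birds per sex the comparisons are limited by their number, and depth was not varied.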
